A study of Mus musculus with 61 samples.

Results

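Chemokines are small secreted proteins that guide the migration of leukocytes, and 10 genes that encode chemokine ligands made by lymphocytes and myeloid cells were followed through mouse libraries that carry different forms of STAT5B. They are Ccl1, Ccl3, Ccl4, Ccl5, Ccl6, Ccl9, Ccl17, Ccl22, Xcl1 and Cxcl10, chosen by symbol from the 24421 genes counted in each of the 61 RNA-seq libraries. The labels gave C57BL/6 and 2 months of age for every sample. For 30 libraries, naive CD4+ T cells were sorted from pooled lymph nodes and spleens, activated, transduced with a retroviral vector and kept in IL-2 for 48 h, and the sorted transduced cells were sequenced. The vector was empty or carried a STAT5B cDNA, unmutated (called STAT5B here) or with the change N642H, Y665F or Y665H, each with 3 libraries from WT and 3 from Stat5a/b-null cells. The null cells came from floxed Stat5a/b mice whose Cd4-Cre transgene removes the locus from double-positive thymocytes onwards, hence from CD4 and from CD8 T cells. The genotype entry names floxed Stat5a/b for all 30 libraries, so the background was taken from the titles. A further 15 libraries came from total T cells isolated from spleens, of which WT, Y665H and Y665F mice gave 4 each, exposed to IL-2 plus IL-7 for 24 h, and Y665F mice gave 3 more without interleukin. The last 16 libraries came from spleen, 4 of WT, 5 of Y665H and 7 of Y665F mice, and the study names this material spleen tissue in its methods and splenocytes in the titles. The Y665H and Y665F mice carried the mutation in their own Stat5b gene, so every cell type of the spleen carried it. The study used homozygous Y665H mice and both homozygous and heterozygous Y665F mice, and the titles do not name the zygosity.

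The ligands act on G protein-coupled receptors of leukocytes. Ccl3, Ccl4 and Ccl5 are inflammatory chemokines made by activated T cells, NK cells and macrophages, and Ccl3 and Ccl5 bind Ccr1. Ccl6 and Ccl9 are rodent ligands of Ccr1 that are typical of myeloid cells. Ccl17 and Ccl22 share the receptor Ccr4 and are well known from dendritic cells, while Ccl1 binds Ccr8 and is made by activated T cells. Xcl1 binds Xcr1 on cross-presenting dendritic cells and is released by NK cells and CD8+ T cells. Cxcl10, an interferon-induced ligand, draws cells that carry Cxcr3. STAT5B, like the related STAT5A, is a transcription factor that the receptors of IL-2 and IL-7 activate.

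In GRCm38, 6 of the 10 genes lie on chromosome 11. Ccl5 (83525778 to 83530518), Ccl9 (83572919 to 83578636), Ccl6 (83587882 to 83593087) and Ccl3 (83647844 to 83649355) are on the minus strand, and Ccl4 (83662584 to 83664683) is on the plus strand, 13229 bases from Ccl3. Ccl1 (82176657 to 82305690, minus strand) lies 1220088 bases from Ccl5, measured from the end of this annotated span. The RefSeq promoter window of Ccl1 (82179763 to 82180062) lies inside the span, which therefore reaches far upstream of the RefSeq start. Ccl22 (94745590 to 94751699) and Ccl17 (94810453 to 94812036) are plus-strand genes of chromosome 8, 58754 bases apart. Xcl1 lies on the minus strand of chromosome 1 (164931644 to 164935527) and Cxcl10 on that of chromosome 5 (92346638 to 92348889). Genes on the opposite strand overlap Xcl1 (Gm20743), Ccl6 (E230016K23Rik) and Cxcl10 (Art3). The strand setting of the counting is not given in the sources used here, so reads of these 3 may include reads of the overlapping gene.

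RefSeq promoter sequences of GRCm38.p6, from 250 bases before to 50 after the RefSeq start, were matched for 8 of the 10 genes, with no entry for Ccl4 and Ccl5. They were searched on both strands for TTCNNNGAA, the form that STAT factors bind, for GGGNNNTCC, which resembles some NF-kappaB sites, and for TATAAA. GGGNNNTCC misses longer NF-kappaB forms, such as the gggaaattcc of the Cxcl10 window, so its matches are not a count of NF-kappaB sites. The windows of Ccl3, Ccl22, Ccl17 and Cxcl10 are shown. Ccl3 was called in more comparisons than any other ligand, and the other 3 were called higher with interleukin. Xcl1 was also called higher with interleukin but is not shown, and its window held none of the motifs. Capitals mark the first and second motif.
Ccl3, chr11:83649329-83649628, minus strand: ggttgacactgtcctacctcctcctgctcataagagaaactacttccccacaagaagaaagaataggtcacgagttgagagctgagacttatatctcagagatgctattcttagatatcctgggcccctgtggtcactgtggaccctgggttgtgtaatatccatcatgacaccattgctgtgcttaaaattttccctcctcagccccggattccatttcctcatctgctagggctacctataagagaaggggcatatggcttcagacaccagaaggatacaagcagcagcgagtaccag
Ccl22, chr8:94745434-94745733, plus strand: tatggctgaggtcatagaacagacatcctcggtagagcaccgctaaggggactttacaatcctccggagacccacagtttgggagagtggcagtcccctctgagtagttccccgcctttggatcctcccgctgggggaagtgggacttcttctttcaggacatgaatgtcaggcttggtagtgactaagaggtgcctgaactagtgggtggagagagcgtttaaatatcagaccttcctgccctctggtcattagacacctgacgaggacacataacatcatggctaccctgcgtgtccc
Ccl17, chr8:94810203-94810502, plus strand: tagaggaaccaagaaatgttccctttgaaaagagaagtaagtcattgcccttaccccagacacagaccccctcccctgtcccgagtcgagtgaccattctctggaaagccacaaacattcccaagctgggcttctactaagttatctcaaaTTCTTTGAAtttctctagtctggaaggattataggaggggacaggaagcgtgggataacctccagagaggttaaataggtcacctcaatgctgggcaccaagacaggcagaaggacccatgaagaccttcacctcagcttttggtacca
Cxcl10, chr5:92348840-92349139, minus strand: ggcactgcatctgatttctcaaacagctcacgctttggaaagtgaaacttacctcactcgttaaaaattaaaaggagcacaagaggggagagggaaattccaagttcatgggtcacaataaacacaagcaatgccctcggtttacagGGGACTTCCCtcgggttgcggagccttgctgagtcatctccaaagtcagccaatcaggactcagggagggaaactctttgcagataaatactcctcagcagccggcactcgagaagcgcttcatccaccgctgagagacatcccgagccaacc

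Among the 8 promoters, TTCNNNGAA was found in 1, that of Ccl17, and in 8.3% of all 32851 promoters of the table. GGGNNNTCC was found in 2, those of Ccl9 and Cxcl10, and in 17.8% of all promoters, and the matches in Cxcl10 overlap on opposite strands. TATAAA was found in 1, that of Ccl9, and in 13.6% of all promoters. A match describes the letters of the window, and no match says only that these letters are not in it.

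The CD4+ libraries held 18825994 to 49850689 reads on genes, the splenic T-cell libraries 2017012 to 27394249 and the spleen libraries 24203179 to 43330536, so values of weak genes in the shallow splenic T-cell libraries rest on few reads. Levels are given as CPM, the count of a gene scaled to library size, after TMM scaling of the library size. Differences are log2 fold changes from edgeR's quasi-likelihood test. Their standard error (SE) was derived as the size of the fold change over the square root of the test's F statistic. It is unstable for very small fold changes. Adjusted p-values are Benjamini-Hochberg's, across every gene in that fit. A gene was called when its adjusted p was under 0.05 and its log2 fold change lay beyond 1 in either direction. The summed level of the T cell markers was 3465 to 5270 CPM in the CD4+ libraries, 1385 to 3536 CPM in splenic T cells and 423 to 1150 CPM in spleen, and that of the CD8 markers was 5.86 to 20.5 CPM in the CD4+ libraries. The labels do not say that replicates came from separate animals in every group, so that p-values measure the spread between these libraries. In bulk RNA, fewer cells that make a ligand and less RNA per cell cannot be told apart.

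In Stat5a/b-null CD4+ T cells, Ccl3 and Ccl4 rose with the N642H and Y665F vectors. Both encode inflammatory chemokines that draw T cells and monocytes, and the Ccl3 calls held in all 13 alternatives tried for each comparison. Ccl3 was at 7.26, 8.87 and 24.2 CPM with the empty vector, 48.3, 47.2 and 37.7 CPM with N642H, and 51.6, 49.5 and 54.2 CPM with Y665F. Every library of both mutants lay above every empty-vector library. The empty vector averaged 13.4 ± 9.33 CPM (SD, n = 3). N642H raised the mean to 44.4 ± 5.85 CPM (SD, n = 3), whereas for Y665F it was 51.8 ± 2.35 CPM (SD, n = 3). On the log2 scale these differences were 1.70 (SE 0.31, adjusted p = 0.00175) and 1.92 (SE 0.31, adjusted p = 0.000862). With Y665H Ccl3 stood at 11.1, 13.5 and 14.1 CPM, inside the range of the empty vector (log2 fold change −0.04, SE 0.31, adjusted p = 0.997). With STAT5B it reached 17.1, 20.4 and 29.5 CPM, and the groups overlapped (0.73, SE 0.31, adjusted p = 0.268). Empty-vector replicate 3 was the high library of its group, and without it Ccl3 was called with STAT5B as well (1.44, adjusted p = 0.000665), as was Ccl4 (1.24, adjusted p = 0.0183). Every Y665H library lay above the other empty-vector libraries, and the log2 fold change of Ccl3 without replicate 3 was 0.67 (adjusted p = 0.491).

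Ccl4, the neighbour of Ccl3, followed with smaller differences. It was at 10.4, 11.2 and 28.4 CPM with the empty vector, 34.2, 31.4 and 41.6 CPM with N642H, and 39.4, 34.1 and 52.0 CPM with Y665F. Again the libraries of both mutants lay above those of the empty vector. The log2 fold changes were 1.07 with N642H (SE 0.32, adjusted p = 0.0386) and 1.30 with Y665F (SE 0.32, adjusted p = 0.0154). The N642H call of Ccl4 was lost when any 1 of 5 libraries was left out, empty-vector replicate 1 or 2 or any N642H replicate (adjusted p 0.0704 to 0.168), and also with library totals, with filterByExpr and by DESeq2, in 8 of 13 alternatives. The Y665F call was lost without empty-vector replicate 1 or 2.

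In WT CD4+ T cells, which keep their own Stat5, Ccl3 rose with N642H and Y665F and Ccl4 with Y665F. Ccl3 was at 8.93, 7.69 and 14.2 CPM with the empty vector, 35.2, 25.8 and 51.5 CPM with N642H and 39.8, 44.6 and 38.2 CPM with Y665F. The mutant libraries did not overlap the empty vector, and the log2 fold changes were 1.88 (SE 0.27, adjusted p = 0.00262) and 1.99 (SE 0.27, adjusted p = 0.00234). Ccl4 was at 13.5, 10.96 and 25.1 CPM with the empty vector, 40.0, 25.8 and 51.9 CPM with N642H and 38.7, 43.6 and 48.2 CPM with Y665F. Its log2 fold change passed with Y665F (1.40, SE 0.32, adjusted p = 0.0424) and not with N642H (1.26, SE 0.32, adjusted p = 0.0645). The Y665F call of Ccl4 was lost without empty-vector replicate 1 or 2 or Y665F replicate 1 or 2. Between the backgrounds, the Ccl3 response differed by −0.13 (SE 0.44) for N642H and −0.04 (SE 0.43) for Y665F on the log2 scale, null against WT, and neither interaction passed.

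**Figure D1:**
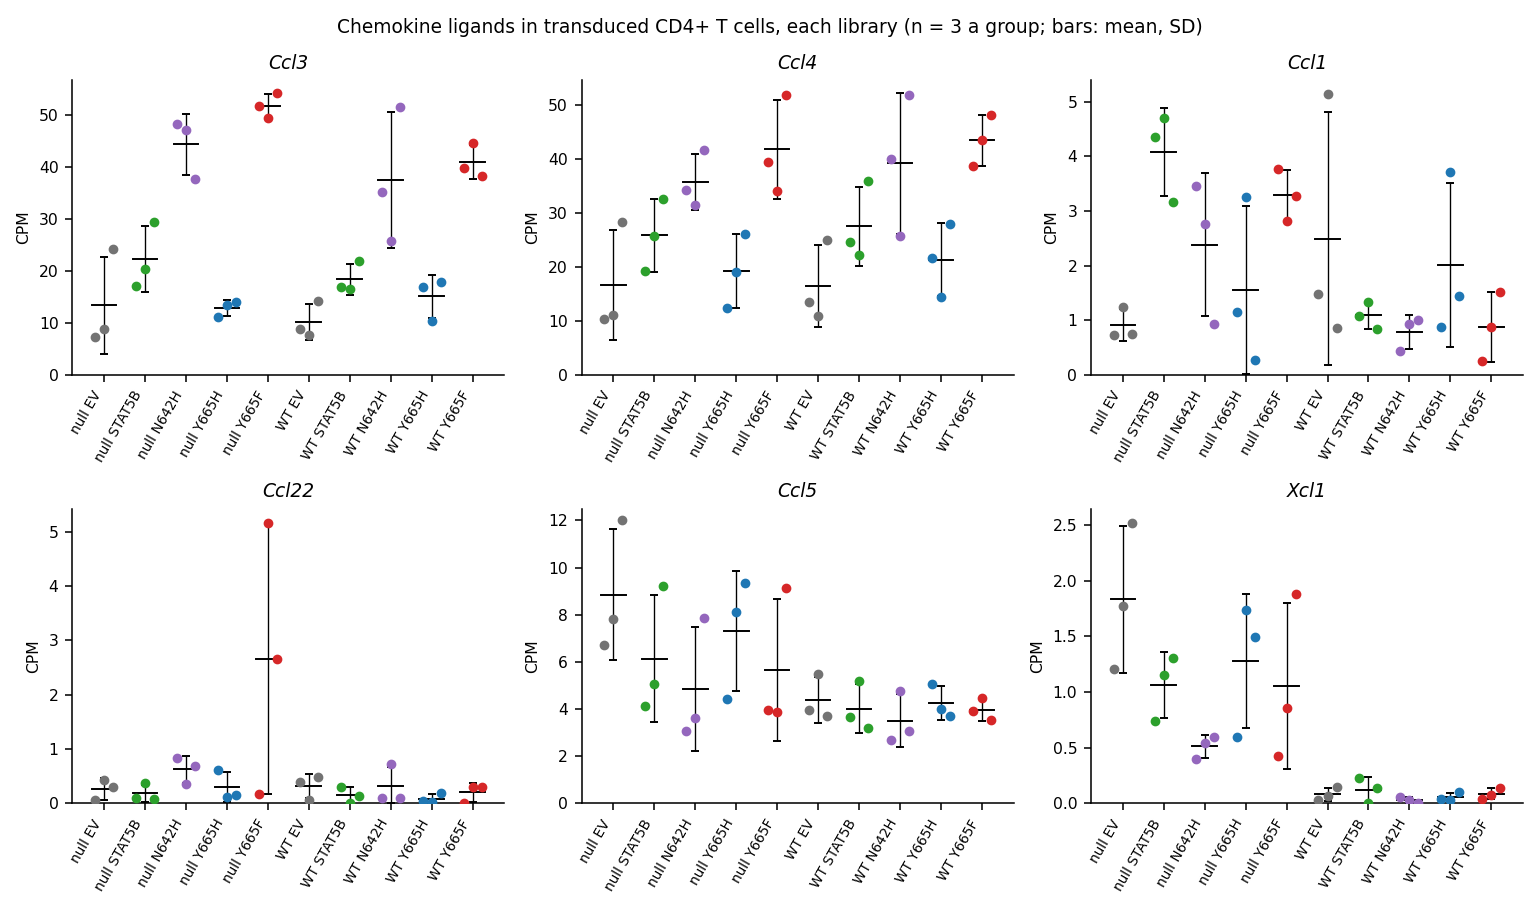
Level of 6 ligands (y axis, CPM, scale of each panel its own) in each of the 30 CD4+ T-cell libraries (points) by background and vector (x axis), with the mean (long bar) and SD (whiskers). In null and WT cells, Ccl3 with N642H or Y665F lay at 25.8 to 54.2 CPM, above the 7.26 to 24.2 CPM of the empty vector.

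Compared directly with STAT5B, Ccl3 was higher by 0.97 with N642H (SE 0.31, adjusted p = 0.488) and 1.20 with Y665F (SE 0.31, adjusted p = 0.378) in null cells, and by 1.04 (SE 0.26, adjusted p = 0.640) and 1.15 (SE 0.26, adjusted p = 0.739) in WT cells, none of which passed. With the replicate number as a block, Ccl3 was called in all 4, with adjusted p = 0.0442 and 0.0175 in null and 0.00213 and 0.000413 in WT cells. For Y665H against STAT5B in null cells, Ccl1 was called lower with the block and also without Y665H replicate 2. With all libraries and no block, edgeR called 0 of the 10 ligands in all 6 comparisons of a mutant with STAT5B. At an unadjusted p under 0.05 these counts were 2 for N642H, 3 for Y665F and 2 for Y665H in null cells, and 1, 1 and 0 in WT cells. DESeq2 called 1 ligand, Ccl22, for Y665F in null cells, 1 ligand, Ccl3, for Y665F in WT cells, and 0 in the other 4. Over all genes tested, 0.0696%, 0.00994% and 0.149% were called for N642H, Y665F and Y665H in null cells and 0.00488%, 0% and 0.00488% in WT cells.

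Against the empty vector in null cells, 3 of 10 ligands were called with N642H (Ccl3 and Ccl4 higher, Xcl1 lower) beside 2.88% of all genes, and 3 with Y665F (Ccl3, Ccl4 and Ccl22, all higher) beside 2.37%. With STAT5B edgeR called 0 beside 0.477% of all genes, with 2 at an unadjusted p under 0.05 and 1 by DESeq2, and with Y665H it called 0 beside 0.0249%, with 0 at an unadjusted p under 0.05 and 0 by DESeq2. In WT cells, 1 was called with N642H beside 0.985% and 2 with Y665F beside 0.707% of all genes. STAT5B and Y665H gave 0 there beside 0.00975% and 0.00488%, with 2 and 0 ligands at an unadjusted p under 0.05 and 0 by DESeq2 for both. These comparisons share their empty-vector libraries. The median log2 fold change of the 10 ligands was −0.28 with N642H and −0.07 with Y665F in null cells, beside 0.01 and −0.02 for all genes.

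In the main fit, which has no replicate block, Ccl1 did not pass the test with any of the 4 constructs in null cells. It was at 0.742, 1.25 and 0.759 CPM with the empty vector, 4.36, 4.70 and 3.17 CPM with STAT5B, 3.45, 2.77 and 0.939 CPM with N642H, 3.76, 2.83 and 3.27 CPM with Y665F and 1.15, 3.26 and 0.269 CPM with Y665H. The libraries of STAT5B and Y665F did not overlap those of the empty vector, while those of N642H and Y665H did. The log2 fold changes were 2.14 for STAT5B (SE 0.57, adjusted p = 0.0638), 1.80 for Y665F (SE 0.57, adjusted p = 0.0536), 1.38 for N642H (SE 0.57, adjusted p = 0.136) and 0.77 for Y665H (SE 0.58, adjusted p = 0.906). With the replicate block Ccl1 was called for STAT5B, N642H and Y665F (adjusted p 0.00343 to 0.0360). In WT cells, where the empty vector gave 1.49, 5.14 and 0.863 CPM, the values for STAT5B, Y665F and N642H were −1.17 (SE 0.66), −1.43 (SE 0.67) and −1.57 (SE 0.67), and 1 empty-vector library stood far above the others. The interaction of Ccl1, null against WT, was 3.35 for STAT5B (SE 0.93, adjusted p = 0.414), 3.0 for N642H (SE 0.94, adjusted p = 0.223) and 3.29 for Y665F (SE 0.94, adjusted p = 0.165). Of the 10 ligands, edgeR called 0 in each interaction, beside 0.1% of all genes for STAT5B, 0.341% for N642H, 0.419% for Y665F and 0.00455% for Y665H. At an unadjusted p under 0.05 there were 1, 1, 2 and 0 ligands, and DESeq2 called 0, 1, 1 and 0.

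Ccl22 rose with Y665F in null cells through 2 of 3 libraries. It was at 0.182, 5.17 and 2.65 CPM with Y665F against 0.0550, 0.435 and 0.311 CPM with the empty vector, from 6, 223 and 65 reads against 2, 15 and 9. The lowest Y665F library lay inside the empty-vector range. The log2 fold change was 3.30 (SE 0.89, adjusted p = 0.0242), and without Y665F replicate 2 it was 2.36 (adjusted p = 0.174). The call was also lost without empty-vector replicate 1 (adjusted p = 0.0917) or 2 (adjusted p = 0.0545). The summed dendritic cell markers, a list of 8 genes of which 0 were at 0 in all libraries of either group, spanned 4.195 to 6.70 CPM with Y665F and 5.25 to 7.66 CPM with the empty vector. Zbtb46 led this sum, with a median of 2.88 CPM beside a median sum of 5.40 CPM with Y665F. With the empty vector it was at 3.62 CPM beside 5.59 CPM. The part of dendritic cells in the Ccl22 difference was not tested.

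Xcl1 separated the backgrounds. It was at 1.21, 1.77 and 2.52 CPM in null cells with the empty vector and at 0.0286, 0.0704 and 0.147 CPM in WT cells, from 1, 3 and 7 reads in the latter. Across all vectors the 15 null libraries lay at 0.395 to 2.52 CPM and the 15 WT libraries at 0 to 0.232 CPM, with no overlap. With the empty vector the log2 fold change, null against WT, was 4.36 (SE 0.70, adjusted p = 8.74e-05), and Xcl1 was the only 1 of the 10 ligands called, beside 4.68% of all genes. The median over all genes of this comparison was −0.12. Within null cells, Xcl1 fell with N642H to 0.395, 0.546 and 0.593 CPM, below every empty-vector library (log2 fold change −1.88, SE 0.50, adjusted p = 0.0192). That call was lost without empty-vector replicate 2 or 3 or N642H replicate 1 or 2 (adjusted p 0.0501 to 0.102).

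Ccl5, like Xcl1 a product of cytotoxic lymphocytes, stood at 6.73, 7.82 and 12.01 CPM in null and at 3.98, 5.49 and 3.70 CPM in WT cells with the empty vector. The libraries did not overlap, and the log2 fold change of 1.01 (SE 0.37, adjusted p = 0.0648) did not pass. With the empty vector, CD8 effector markers (8 genes) summed to 115 to 277 CPM in null and 16.8 to 19.4 CPM in WT cells. Most of this sum was Nkg7, the only 1 of the 8 called. Its median was 122 CPM beside a median sum of 130 CPM in null cells, and 14.4 CPM beside 17.4 CPM in WT cells. CD8 markers (Cd8a and Cd8b1) summed to 15.1 to 20.3 CPM in null and 6.29 to 7.62 CPM in WT cells of these groups. The groups did not overlap, and Cd8b1 was called higher. Nearly all of this sum was Cd8b1, with a median of 17.2 CPM beside a median sum of 17.6 CPM in null cells. In WT cells Cd8b1 was at 7.53 CPM beside 7.58 CPM. In WT splenic T cells with interleukin Cd8a led instead, with a median of 599 CPM. The summed NK cell markers stayed at 0.0869 to 0.621 CPM in null and 0.117 to 0.343 CPM in WT cells, with Klra8 and Klra4 at 0 in both. The part of CD8 cells and of CD8 effector genes in the Xcl1 and Ccl5 levels was not tested.

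The myeloid and dendritic ligands were near the limit of detection in CD4+ T cells. Group means were at most 0.202 CPM for Ccl6, 0.343 CPM for Ccl9, 0.109 CPM for Ccl17 and 0.348 CPM for Cxcl10 in the 10 groups, and Ccl22 exceeded 1 CPM only in 2 of the Y665F libraries of null cells. Apart from the Ccl22 call above, edgeR called none of these 5 genes between CD4+ groups. Per kilobase of exon, which allows genes to be compared, the median over the 10 group means was 40.5 CPM for Ccl4, 26.6 CPM for Ccl3, 4.81 CPM for Ccl5 and 0.754 CPM for Ccl1.

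The genes whose 10 group means in CD4+ T cells ran most like those of a ligand with a highest group mean of at least 10 CPM were taken by Pearson's r of log2 (CPM + 1). For Ccl3 they were Sema6d (r = 0.975), Pigr (0.974) and Cpd (0.972), and for Ccl4 Tmcc1 (0.977), Tmem41a (0.973) and Pigr (0.969). Ccl3 and Ccl4 themselves correlated with r = 0.925 over the 30 CD4+ libraries, and with 0.877 in the deviations from their group means. The points share libraries and scaling, and these values are descriptions.

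Of the 8 receptors of these ligands, Ccr4, the receptor of Ccl17 and Ccl22, moved in the null cells. It was at 36.8 ± 12.1 CPM (SD, n = 3) with the empty vector. STAT5B brought it to 83.9 ± 21.8 CPM (SD, n = 3), N642H to 119 ± 20.9 CPM (SD, n = 3) and Y665F to 110 ± 26.0 CPM (SD, n = 3), and the log2 fold changes of 1.18, 1.66 and 1.55 were called. In WT cells Ccr4 was already at 173 ± 12.4 CPM (SD, n = 3) with the empty vector, and edgeR called 0 of 8 receptors there with N642H or Y665F. The Ccr4 response was larger in null than in WT cells for N642H (interaction 1.55, SE 0.29, adjusted p = 0.00526) and Y665F (1.34, SE 0.29, adjusted p = 0.0225). Among the other chemokine genes, 13 further receptors were tested in null cells, of which Cxcr5 was called lower with STAT5B, N642H and Y665F and Cxcr6 lower with N642H, while edgeR called 0 of 6 other CC ligands and 0 of 13 CXC and CX3C ligands. Between null and WT cells with the empty vector, 5 of 15 other receptors (Ccr6, Ccr7, Cxcr4, Cxcr5 and Cxcr6) and the ligands Ccl20 and Cxcl13 were higher in null cells.

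In splenic T cells cultured with IL-2 and IL-7, 5 of the 10 ligands were called higher in Y665F than in Y665H cells (Ccl3, Ccl4, Ccl5, Ccl6 and Ccl22) and 0 lower, beside 4.78% of all genes, with a median over the 10 of 2.19 on the log2 scale beside 0.13 for all genes. Ccl22 differed most, at 48.2, 30.5, 25.3 and 63.0 CPM in Y665F against 0.571, 3.89, 2.64 and 1.83 CPM in Y665H cells. The groups were far apart, with a log2 fold change of 4.26 (SE 0.53, adjusted p = 3.64e-05). The Y665H values rest on 2, 8, 38 and 10 reads, from libraries of 3310342, 2017012, 15896125 and 5327354 reads on genes.

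Ccl3 was at 19.2, 11.7, 12.2 and 16.8 CPM in Y665F and 0.571, 4.37, 4.10 and 2.01 CPM in Y665H cells, without overlap (2.42, SE 0.48, adjusted p = 0.00289). Ccl4 followed at 5.64, 4.04, 2.13 and 3.89 CPM against 0.286, 0.972, 1.39 and 0.548 CPM (2.18, SE 0.53, adjusted p = 0.0139), a call lost without Y665H replicate 4. Ccl6, a ligand of Ccr1, was at 42.0, 23.0, 46.7 and 29.6 CPM against 5.14, 5.35, 12.1 and 5.30 CPM (2.25, SE 0.49, adjusted p = 0.00680). All 4 Y665F libraries lay above all 4 Y665H libraries for these genes. Ccl5 was called (1.68, SE 0.33, adjusted p = 0.00298) although its lowest Y665F library, at 26.8 CPM, lay below the highest Y665H library, at 28.7 CPM. Cxcl10 (2.19, SE 0.67, adjusted p = 0.0530) and Xcl1 (1.84, SE 0.59, adjusted p = 0.0675) did not pass, and Ccl9 was at 6.57 to 23.6 CPM in Y665H and 7.93 to 19.3 CPM in Y665F cells.

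**Figure D2:**
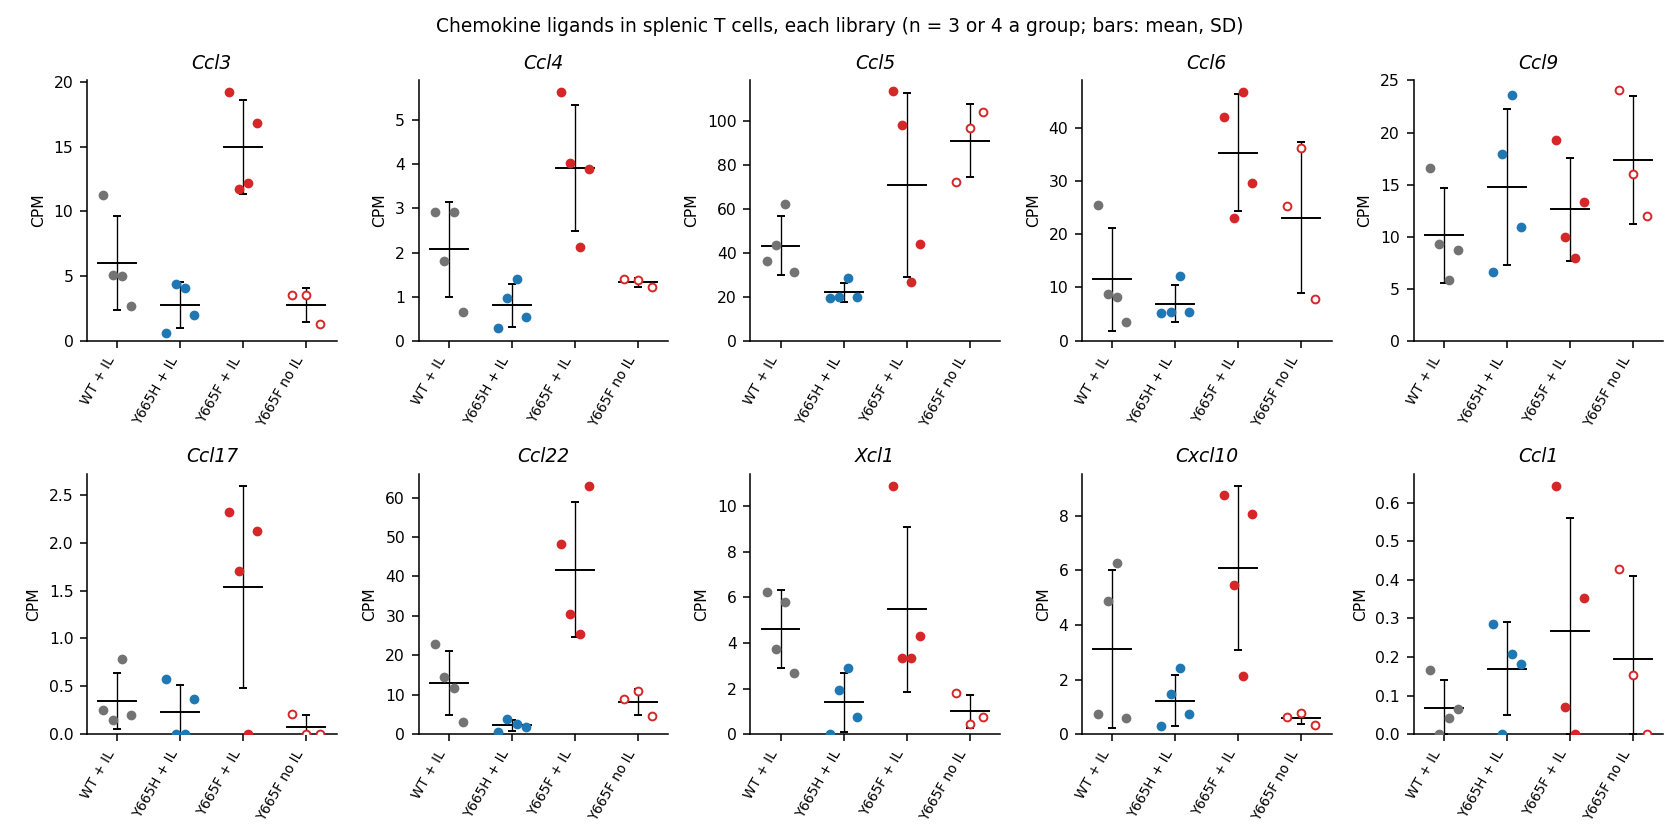
Level of the 10 ligands (y axis, CPM, scale of each panel its own) in each of the 15 splenic T-cell libraries (points) by genotype and exposure, with (IL, filled) or without (open) IL-2 and IL-7 (x axis), with the mean (long bar) and SD (whiskers). Ccl22 lay at 25.3 to 63.0 CPM in Y665F cells with interleukin, above all other groups, whose highest value was 22.8 CPM.

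Markers of other cells differed between these groups too. The summed NK cell markers (6 genes, Klra8 and Klra4 at 0 in both groups) spanned 82.9 to 120 CPM in Y665F and 16.6 to 44.8 CPM in Y665H cells with interleukin, and 4 of the 4 tested were called higher. The CD8 effector markers, genes of cells that make Ccl3, Ccl4 and Ccl5, summed to 402 to 719 CPM in Y665F and 146 to 211 CPM in Y665H cells, without overlap, with 3 of 8 called higher (Gzma, Klrg1 and Ly6c2). The CD8 markers (Cd8a and Cd8b1) overlapped, at 512 to 1198 CPM in Y665F and 629 to 815 CPM in Y665H cells. So did the T cell markers, at 1385 to 2863 CPM and 2419 to 2919 CPM. The summed B cell markers (6 genes) spanned 14.5 to 501 CPM in Y665F and 10.3 to 27.2 CPM in Y665H cells, dendritic cell markers (8 genes) 32.7 to 43.1 CPM and 13.1 to 22.8 CPM, monocyte and macrophage markers (10 genes) 122 to 287 CPM and 31.7 to 398 CPM, and neutrophil markers (9 genes, Ly6g at 0 in both and Elane in Y665H) 72.4 to 271 CPM and 19.99 to 73.3 CPM. Called higher were 4 of 6 B cell, 2 of 8 dendritic cell, 1 of 10 monocyte and macrophage and 2 of 8 tested neutrophil markers. Erythroid markers (6 genes, Hbb-bt at 0) spanned 7.07 to 1077 CPM in Y665F and 16.9 to 33.9 CPM in Y665H cells, with 2 of 5 tested called higher. Of 10 interferon-induced genes 8 were called higher in Y665F. The part of these cells in the ligand differences was not tested.

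The comparisons of splenic T cells share libraries with each other. Against WT cells with interleukin, 1 of 10 ligands, Ccl22, was called in Y665F cells, beside 1.53% of all genes. WT cells were at 22.8, 14.6, 11.7 and 3.08 CPM, below all Y665F libraries (log2 fold change 1.69, SE 0.43, adjusted p = 0.0418). The call was lost without WT replicate 2, 3 or 4 or Y665F replicate 4 (adjusted p 0.0832 to 0.193). Ccl6 (1.62, SE 0.46, adjusted p = 0.0707) and Ccl3 (1.34, SE 0.42, adjusted p = 0.0996) did not pass, and Ccl3 did not overlap between the groups, with WT at 2.69 to 11.2 CPM. Both were called without WT replicate 1. The replicate block also lost the Ccl22 call (adjusted p = 0.0804), as did the fit of the groups alone. The dendritic cell markers, cells known for Ccl22, summed to 14.2 to 33.3 CPM in WT cells beside the 32.7 to 43.1 CPM of Y665F, with 0 of 8 called. The CD8 effector markers summed to 247 to 367 CPM in WT cells, below all Y665F libraries, with Gzma called, and the neutrophil markers to 8.68 to 14.7 CPM, with 4 of 8 tested called. The CD8 markers, at 816.5 to 1149 CPM in WT cells, overlapped the 512 to 1198 CPM of Y665F. The interferon-induced genes summed to 1291 to 2662 CPM (4 of 10 called higher in Y665F), the erythroid markers to 5.97 to 37.9 CPM (2 of 5 tested), the B cell markers to 8.93 to 73.3 CPM (1 of 6) and the NK cell markers to 40.4 to 174 CPM (0 of 4 tested). Their part in the Ccl22 difference was not tested. In Y665H against WT cells, edgeR called 0 of 10 ligands beside 0.0717% of all genes, with 5 at an unadjusted p under 0.05 and 1 by DESeq2, Ccl22. Its log2 fold change of −2.57 (SE 0.51, adjusted p = 0.0545) was the largest of the 10.

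Cells with and without IL-2 and IL-7 were compared in Y665F mice only. Those with interleukin were kept in it for 24 h, while the sources give no time in culture for those without and describe T cells sequenced directly after isolation, so interleukin and time in culture cannot be told apart. Of the 10 ligands, 5 were called higher with interleukin than without (Ccl3, Ccl17, Ccl22, Xcl1 and Cxcl10), beside 2.97% of all genes, and 0 lower. The median over the 10 ligands was 1.99 beside −0.13 for all genes. Cxcl10 rose from 0.642, 0.764 and 0.335 CPM to 8.75, 5.45, 2.13 and 8.05 CPM (3.44, SE 0.77, adjusted p = 0.00855). Ccl3 rose from 3.53, 3.51 and 1.27 CPM to the 11.7 to 19.2 CPM above (2.45, SE 0.50, adjusted p = 0.00401). Ccl22 rose from 8.99, 10.8 and 4.56 CPM (2.37, SE 0.49, adjusted p = 0.00461). For all 3 genes the groups did not overlap.

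Xcl1 stood at 1.82, 0.458 and 0.738 CPM without and 10.9, 3.33, 3.35 and 4.31 CPM with interleukin (2.52, SE 0.65, adjusted p = 0.0257). Ccl17 was counted with 2, 0 and 0 reads without and 47, 24, 0 and 30 reads with interleukin, where the library at 0 was the shallowest of the group, and its call (4.61, SE 1.23, adjusted p = 0.0329), which rests on these few reads, was lost in 9 of 14 alternatives. Single libraries set some of these calls. Without replicate 3 of the libraries that had no interleukin edgeR called 0 of 10 ligands, with adjusted p = 0.0536 for Ccl3, 0.0595 for Ccl22 and 0.0808 for Cxcl10. The Cxcl10 call was also lost without replicate 1 of that group (adjusted p = 0.0622), and the Xcl1 call without its replicate 2 (0.137) or without Y665F replicate 1 with interleukin (0.129). Ccl5 did not follow, at 72.3, 96.7 and 104 CPM without and 26.8 to 114 CPM with interleukin (−0.35, SE 0.34, adjusted p = 0.608). Of 10 interferon-induced genes, a list without Cxcl10, 7 were called higher with interleukin, and their summed level was 2388 to 5065 CPM with and 574 to 654 CPM without. The NK cell markers summed to 82.9 to 120 CPM with and 29.9 to 39.4 CPM without (3 of 4 tested called higher), and the CD8 effector markers to 402 to 719 CPM and 158 to 210 CPM (3 of 8), while the CD8 markers summed to 512 to 1198 CPM and 429 to 649 CPM (Cd8a called). Their part in these results was not tested.

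Among the receptors in splenic T cells with interleukin, Ccr4 was called higher in Y665F than in Y665H cells (log2 fold change 1.32, SE 0.38, adjusted p = 0.0399), and Ccr1 higher in Y665F than in WT cells (2.21, SE 0.48, adjusted p = 0.0163). With against without interleukin Xcr1, the receptor of Xcl1, was lower (−1.26, SE 0.36, adjusted p = 0.0489). Of 10 other CC ligands tested, Ccl2 was called higher in Y665F than in WT cells, and of 15 other CXC and CX3C ligands edgeR called 0 in any of the 4 comparisons. Per kilobase of exon, Ccl5 led the ligands in splenic T cells with a median over the 4 group means of 59.3 CPM, ahead of Ccl6 with 9.64 CPM, and Ccl1 was lowest with 0.0766 CPM.

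**Figure D3:**
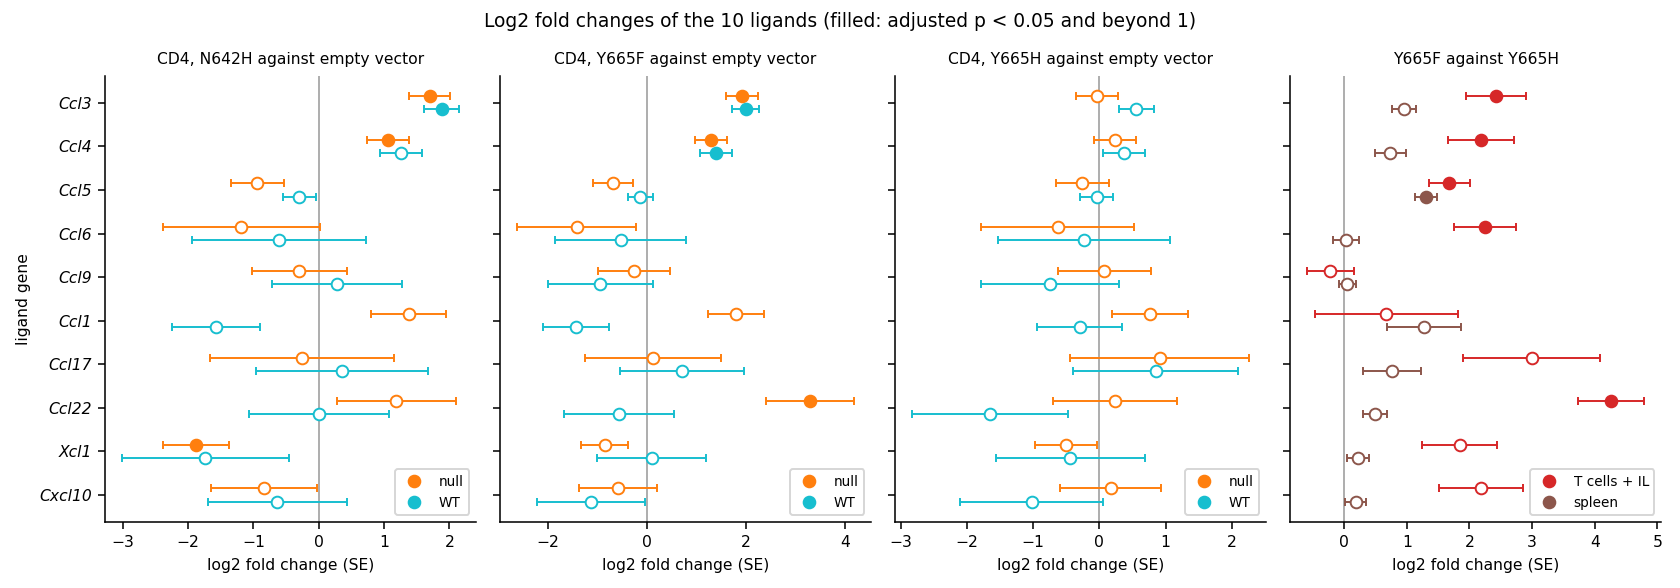
Log2 fold change (x axis) with its SE (whiskers) of the 10 ligands (y axis) in CD4+ T cells with N642H, Y665F or Y665H against the empty vector, in null and WT cells, and for Y665F against Y665H in splenic T cells with interleukin and in spleen. Filled points were called; Ccl3 was called with N642H and Y665F in both backgrounds, at 1.70 to 1.99.

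In spleen, Ccl5 was the only ligand called, and it set Y665F apart from Y665H. It was at 30.6, 23.3, 16, 18.2 and 12.8 CPM in Y665H spleens, 28.0, 27.2, 29.0 and 32.9 CPM in WT spleens and 34.4 (lowest), 51.0 (median) and 60.8 CPM (highest) in Y665F spleens. All 7 Y665F libraries lay above every other library. The log2 fold change of Ccl5 in Y665F spleens was 1.30 over Y665H (SE 0.18, adjusted p = 7.76e-05) and over WT spleens 0.77 (SE 0.19, adjusted p = 0.0141), the latter under the fold-change minimum. In this tissue 1 of 10 ligands was called for Y665F against Y665H beside 5.28% of all genes.

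For Y665F against WT spleens edgeR called 0 of 10 ligands beside 1.2% of all genes, with 2 at an unadjusted p under 0.05 and 0 by DESeq2, and for Y665H against WT 0 beside 4.37%, with 3 and 0. The T cell markers (10 genes, 0 at 0) summed to 823 to 1150 CPM in Y665F, 606 to 732 CPM in WT and 423 to 641 CPM in Y665H spleens. The CD8 markers (Cd8a and Cd8b1) summed to 199 to 304, 162 to 185 and 76.4 to 108 CPM in the same order. The CD8 effector markers (8 genes) summed to 174 to 258, 139 to 172 and 100 to 130 CPM, and the NK cell markers (6 genes, Klra4 at 0) to 19.98 to 67.1, 60.1 to 83.1 and 23.0 to 36.1 CPM. Erythroid markers (6 genes) reached 5126 CPM in Y665H, 1586 CPM in WT and 1475 CPM in Y665F spleens. The part of these cells in the Ccl5 and Ccl3 differences was not tested.

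Ccl3 was weakly expressed in spleen, and lowest in Y665H, at 0.866, 0.976, 0.949, 0.937 and 0.468 CPM against 1.59, 1.62, 1.64 and 1.40 CPM in WT spleens. The libraries did not overlap, and the log2 fold change of −0.88 (SE 0.22, adjusted p = 0.00828) passed on its adjusted p and not on the fold. In Y665F spleens Ccl3 spanned 1.28 to 2.26 CPM (0.96 over Y665H, SE 0.19, adjusted p = 0.00154). Xcl1 was at 2.34, 2.85, 3.35, 1.90 and 2.41 CPM in Y665H and 4.52, 2.77, 3.97 and 3.96 CPM in WT spleens (−0.56, SE 0.19, adjusted p = 0.0455), and the groups overlapped.

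**Figure D4:**
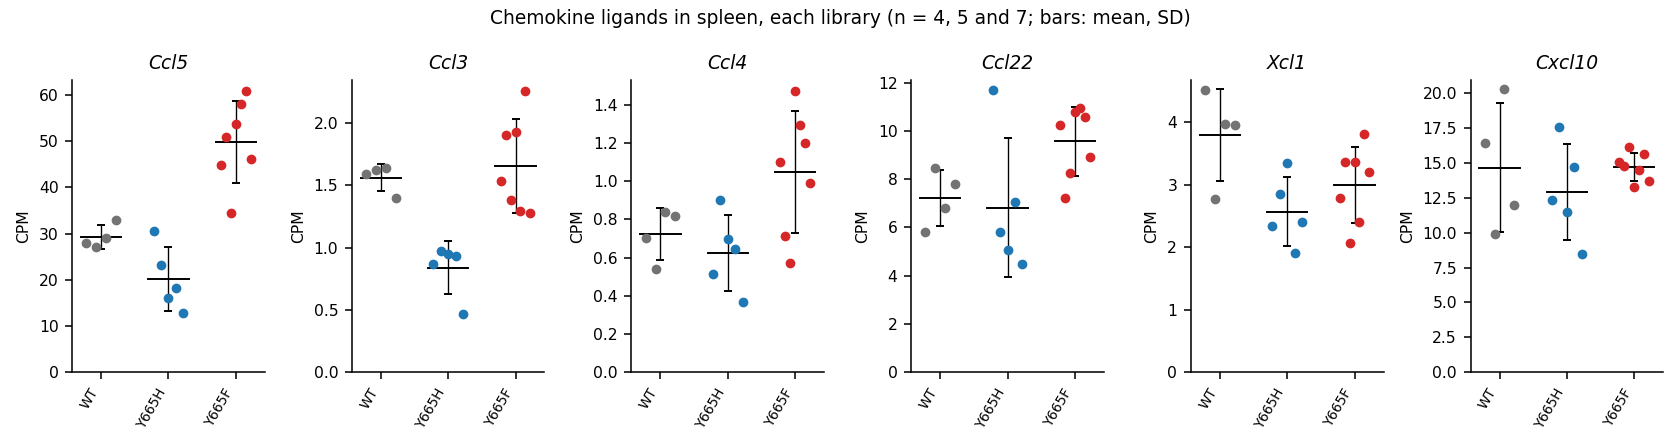
Level of 6 ligands (y axis, CPM, scale of each panel its own) in each of the 16 spleen libraries (points) by genotype (x axis), with the mean (long bar) and SD (whiskers). Ccl5 lay at 34.4 to 60.8 CPM in Y665F spleens and at 12.8 to 32.9 CPM in the others, while Cxcl10 overlapped between all 3 genotypes.

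Ccl4, at 0.570 to 1.47 CPM in Y665F and 0.368 to 0.903 CPM in Y665H spleens, passed on its adjusted p and not on the fold (0.74, SE 0.25, adjusted p = 0.0369). The remaining ligands of spleen did not pass between genotypes. Cxcl10 spanned 9.90 to 20.3 CPM in WT, 8.49 to 17.6 CPM in Y665H and 13.3 to 16.1 CPM in Y665F spleens. Ccl6 had group means of 18.0, 14.0 and 14.3 CPM and Ccl9 of 12.8, 11.1 and 11.6 CPM in the same order, and Ccl22 of 7.21, 6.82 and 9.56 CPM. Ccl17 and Ccl1 stayed below 1 CPM in every spleen library. Ccr8, the receptor of Ccl1, was called higher in Y665F than in WT (1.34, SE 0.36, adjusted p = 0.0233) and Y665H spleens (1.31, SE 0.33, adjusted p = 0.00715), at group means of 1.32, 0.515 and 0.543 CPM. Ccr3 was called lower in Y665F than in WT spleens (−1.26, SE 0.25, adjusted p = 0.00400). Of 15 other receptors, Cxcr1, Ackr1 and Ccrl2 were called higher in Y665H than in WT spleens, and of 10 other CC ligands Ccl24 lower, while edgeR called 0 of 13 CXC and CX3C ligands. Per kilobase of exon Ccl5 again led in spleen, with a median over the 3 group means of 30.5 CPM, ahead of Ccl6 with 7.95 CPM, Cxcl10 with 6.51 CPM and Xcl1 with 5.74 CPM.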

How the data were processed

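RNA was sequenced as stranded total RNA. Per the labels and the study's methods, the authors trimmed reads with Trimmomatic 0.36, aligned them with STAR to mm10 and deposited raw read counts per gene from HTSeq 0.9.1; the annotation and the strand setting are not given in the sources used here. Rows that name no gene, 28.44% to 85.72% of a library's reads, stayed out of library sizes and tests. In splenic T cells this share differed between groups. It was 77.66% to 85.72% in Y665F cells without interleukin and 67.57% to 84.03% with it. Y665H cells had 68.72% to 71.88% and WT cells 63.91% to 72.55%, both with interleukin. The part of this share in the comparisons was not tested. Groups came from sample titles.

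The deposited counts were tested with edgeR 4.0.16 (R 4.3.3, quasi-likelihood test) in 5 fits, for null CD4+, WT CD4+, all CD4+, splenic T-cell and spleen libraries, with TMM scaling, genes with at least 10 reads over the fit's libraries and Benjamini-Hochberg adjustment over all of them. The test was run on simulated counts with the same spread for all genes and changes only in well-counted genes. That run does not cover ligands with few reads or a wide spread. DESeq2 1.42.0 and other scalings, filters and libraries were alternatives. All 10 ligands are named, and other genes come from lists of receptors, other chemokines, interferon-induced genes and cell type markers; the members and lists were chosen with earlier results of these data known. Gene positions are from GENCODE M21 (GRCm38, which is mm10). 1 gene of the receptor list is not reported here.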

Additional observations from a re-analysis of the deposited data

Results flagged for a closer look

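In 5 of 60 sets of 4 to 10 libraries, each set 1 ligand in 1 group, the highest or lowest library stood beyond Dixon's 95% limit, where chance gives about 5%. In splenic T cells with interleukin, WT replicate 3 had 0.783 CPM of Ccl17, from 19 reads, against at most 0.249 CPM in the others. Y665H replicate 3, the deepest of its group, had 28.7 CPM of Ccl5 against 19.4 to 19.9 CPM and 12.1 CPM of Ccl6 against 5.14 to 5.35 CPM. Y665F replicate 1 had 10.9 CPM of Xcl1 against 3.33 to 4.31 CPM. In spleen, Y665H replicate 5 had 0.468 CPM of Ccl3, from 14 reads, against 0.866 to 0.976 CPM. The cause was not tested for any of them.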

How the results depend on the processing

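The 22 fold changes called in the report kept their sign in every alternative, and of the 238 not called 13 changed sign in an alternative other than leaving out a library and 109 without 1 library, none of them called there. Ccl3 with Y665H in null cells was 0.052 with the replicate block and −0.33 to 0.67 without 1 library, Ccl1 there −0.34 to 1.28, and the Ccl3 interactions −0.46 to 0.60 for N642H and −0.36 to 0.69 for Y665F. Over the fold changes with a call, an unadjusted p under 0.05 or a printed value, and leaving single libraries aside, 486 values kept direction and call, 37 gained and 13 lost a call. Of the 10 ligands, 1 was called for STAT5B against the empty vector in null cells (0 in the report) without a filter on low counts, by DESeq2 and with the groups alone; for N642H in WT cells 2 (1) without a filter and by DESeq2; for Y665F in WT cells 1 (2) with library totals; for null against WT cells 2 (1) with filterByExpr, DESeq2 and the groups alone; and by DESeq2 1 (0) for Y665F against STAT5B in null and in WT cells and for the N642H and Y665F interactions. In splenic T cells, Y665F against WT gave 3 by DESeq2 and 0 with the groups alone (1), Y665H against WT 1 without a filter and by DESeq2 (0), and interleukin 3 with RLE factors and with library totals (5). In spleen, without a fold-change minimum the counts were 1 for Y665F and 2 for Y665H against WT and 3 for Y665F against Y665H, which gave 2 with library totals (1). The cause was not tested, apart from the fold-change minimum.

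Without 1 library, the counts ranged over 0 to 2 for STAT5B, 1 to 4 for N642H and 1 to 3 for Y665F against the empty vector and 0 to 1 for Y665H against STAT5B in null cells, and 1 to 2 for N642H and for Y665F in WT cells. They ranged over 0 to 3 for Y665F and 0 to 1 for Y665H against WT, 4 to 7 for Y665F against Y665H and 0 to 6 for interleukin in splenic T cells, and 1 to 2 for Y665F against Y665H in spleen.

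Same-numbered CD4+ libraries often deviated together: 28 of 30 pairs in null and 29 of 30 in WT cells had a correlation over 0.1 (lowest −0.167 and 0.000647), and 14 of 15 and 15 of 15 libraries correlated best with their own number, a hint from the data and not the design. As not every pair passed, the numbers were not taken as pairing. The main fits therefore keep any shared effect of the number in their spread, and some calls depend on this choice. Of 5 gene selections for this check, 4 of them added after seeing the data and not used to decide, all pairs passed in 2. With the replicate block, 1 ligand was called (0 without) for STAT5B against the empty vector (Ccl1), N642H and Y665F against STAT5B (Ccl3) and Y665H against STAT5B (Ccl1, lower) in null cells, for N642H and Y665F against STAT5B in WT cells (Ccl3) and for the Y665F interaction (Ccl1), 2 (1) for N642H in WT cells (Ccl4 gained), and 0 (1) for Y665F against WT in splenic T cells (Ccl22 lost). It moved other counts by less: Ccl1 was gained for N642H and Y665F in null cells (4 each, against 3) and Cxcl10 for Y665F against Y665H in splenic T cells (6 against 5), and Ccl17 was lost for interleukin (4 against 5). In splenic T cells 5 of 21 and in spleen 4 of 13 pairs passed. Low reads limit Ccl1, Ccl17 and, in CD4+ cells, Ccl6, Ccl9, Ccl22 and Cxcl10.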
